A study of Mus musculus with 24 samples.

Results

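The 12 libraries compared here, of 24 in the series, are all the libraries of male mice: 3 of dnTGFB mice given secretin, 3 of dnTGFB mice without it, 3 of wild-type (WT) mice given secretin and 3 of WT mice without it. They were selected by sex, genotype and treatment as their titles give them. They serve to compare the difference between secretin-treated and untreated libraries in dnTGFB with that in WT. Below, secretin's effect is that difference, with any difference of pool and, in WT, of age included. Each library holds poly(A) RNA, made from 500 ng of total RNA, of intrahepatic cholangiocytes captured with an antibody and magnetic beads. The dnTGFB mice carry a dominant-negative TGF-β receptor II (dnTGFBRII) and are used to study primary biliary cholangitis (PBC). The labels name no promoter; in the widely used dnTGFBRII strain the Cd4 promoter drives the transgene in T cells. Both secretin groups received 4 µg of secretin per kg of body weight per day from an osmotic minipump implanted at 32 weeks of age. A second pump followed after 1 month, and the mice were used after 8 weeks of treatment at 40 weeks of age. Untreated WT mice were used at 32 weeks, so age and secretin cannot be told apart in the WT comparison. The same limit holds for every interaction, which contains the WT comparison. No age is given for untreated dnTGFB mice in the sources used here. Each group is 1 pool of cells from 6 to 8 mice, sequenced in triplicate. The p-values below thus rest on the spread between the 3 libraries of each group, not between mice. WT 1 and dnTGFB 3 differed from the other libraries of their groups by more than the noise of repeat sequencing, as given below. That difference is part of the spread. The genotype label contradicts the title for the 3 WT secretin and the 3 untreated dnTGFB libraries; the titles and the series' design text were followed.

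Secretin is a peptide hormone of the duodenum whose receptor, in the liver, is found on cholangiocytes, mainly those of large bile ducts. Binding raises cyclic AMP, which opens the chloride channel Cftr; chloride leaving through it is taken back in exchange for bicarbonate by the anion exchanger Slc4a2 (AE2), and water follows, so that bile becomes more alkaline. In PBC the immune system attacks small bile ducts, and reduced AE2 activity is thought to leave cholangiocytes less protected against bile acids.

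The libraries were not alike in content, which touches every result below. Total counts ranged from 15225605 to 30203330 in 11 libraries, and dnTGFB 3 held 1429218. The chi-square per gene between libraries thinned to equal depth, where 1 is the noise of repeat sequencing, was 1.09 to 1.44 from each library to its nearest neighbour in its group, except for WT 1 and dnTGFB 3. WT 1 lay at 39.96 from its nearest WT library but at 7.23 from dnTGFB 2, and dnTGFB 3 lay at 78.54 from dnTGFB 1 but at 34.43 from a female dnTGFB library. Mitochondrially encoded genes took 5.31% to 5.66% of counts in dnTGFB secretin, 55.07%, 55.03% and 11.44% in dnTGFB 1 to 3, 19.38% to 19.46% in WT secretin, and 42.75%, 9.73% and 9.75% in WT 1 to 3. The summed level of 30 biliary identity genes, in CPM (counts scaled to a library total of 1000000), was 12739.8 to 12896 in dnTGFB secretin, 1605 to 1751 in dnTGFB, 5902 to 5972 in WT secretin and 3445 to 7708 in WT. That of 28 hepatocyte genes was 7519 to 7544 in dnTGFB secretin, 6132 to 23803 in dnTGFB, 23346 to 24452 in WT secretin and 4972 to 17568 in WT. RNA of biliary genes was thus counted in all 12 libraries, which alone does not show how much of a library came from cholangiocytes. RNA of hepatocyte genes exceeded that of biliary genes in all of the untreated dnTGFB and WT secretin libraries and in WT 1. Heart muscle and neuronal genes stood out in dnTGFB 3, with sums of 17687 and 7948 CPM against 228 to 393 and 504 to 530 CPM in dnTGFB 1 and 2. Xist, the RNA of the inactive X chromosome, was at 33.98 to 42.43 CPM in the WT secretin libraries, while the other 9 did not exceed 5.74 CPM, although all are titled male. The Y chromosome genes Ddx3y and Kdm5d were at 77.63 to 81.79 and 14.59 to 20.48 CPM in WT secretin. In the other 9 libraries they were at 64.67 to 150.9 and 5.45 to 16.64 CPM. The source of the Xist reads was not tested. The part of these differences in the results was not tested; values without WT 1 and dnTGFB 3 are given beside each list, and beside a single gene where they end or make a call or differ by over 1.5 times. A swap of WT 1 or dnTGFB 3 with another library, or a mixture, was not tested and cannot be told from the files, so the means of the WT and dnTGFB groups may hold RNA of another group.

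**Figure D1:**
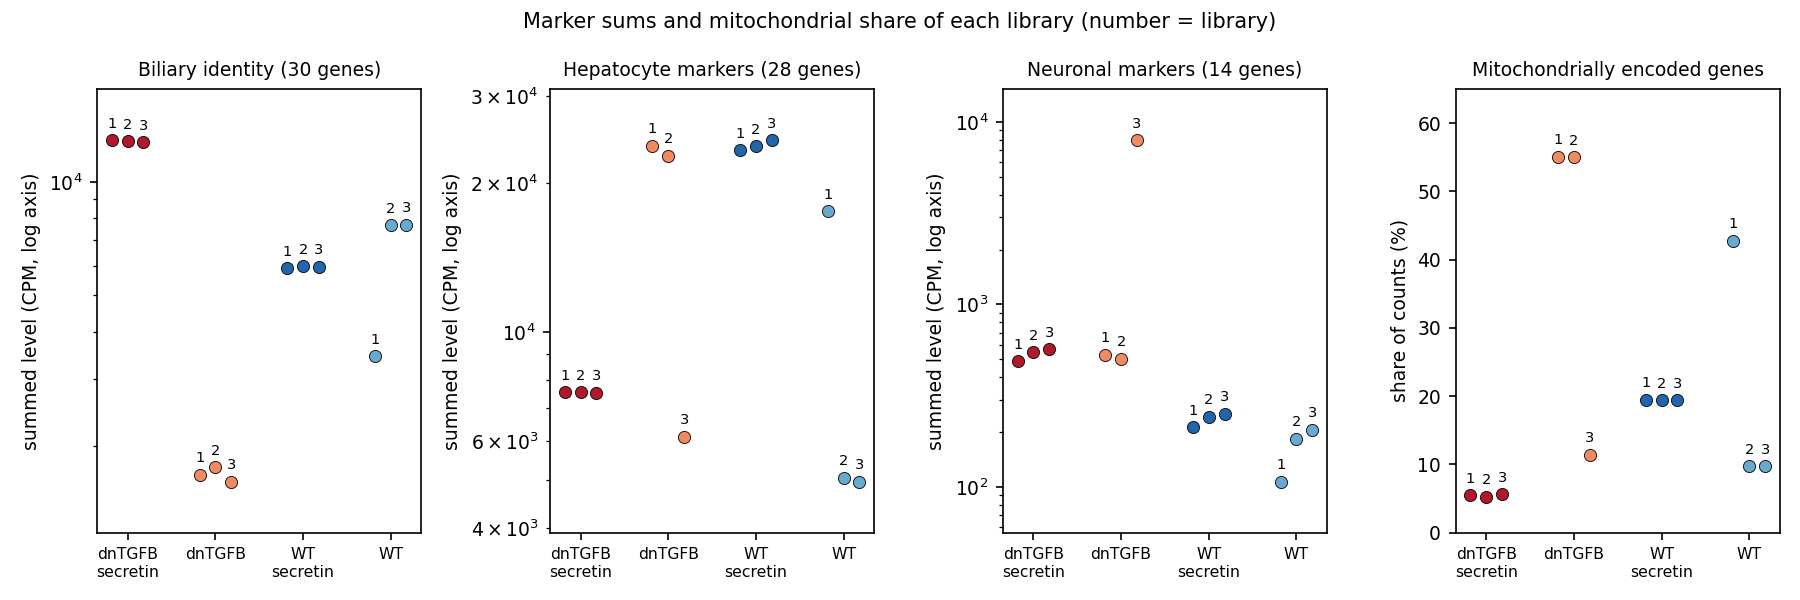
Summed CPM of the library total for biliary, hepatocyte and neuronal marker genes (log axes) and the percentage of counts from mitochondrially encoded genes in each of the 12 male libraries, with the library number above each point. WT 1 lies apart from the other WT libraries in all 4 panels and dnTGFB 3 from the other dnTGFB libraries in all but the biliary one, and the 3 dnTGFB secretin libraries have the highest biliary sums, 12739.8 to 12896 CPM.

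Secretin's effect differed between the genotypes in 2931 of 18777 genes tested (15.6%). The measure is the interaction, the log2 change of dnTGFB secretin over dnTGFB minus the log2 change of WT secretin over WT, tested by the quasi-likelihood F test of edgeR; a call needs an adjusted p (Benjamini-Hochberg; below, edgeR adjusted p) under 0.05. It was positive, the effect of secretin being higher in dnTGFB than in WT, in 1521 genes (8.10%), and negative in 1410 genes (7.51%). Of all called genes, 2435 had an interaction of at least 1 log2 unit, a 2-fold difference, in either direction. The median was 1.43 over called positive genes, -2.78 over called negative genes and -0.07 over all genes. With libraries scaled by their totals alone the median over all genes moved to 0.50, and 3231 genes were positive against 553 negative, 85.4% positive in place of 51.9%. Changes below are relative to the median gene under TMM scaling, the trimmed mean of M-values.

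Both secretin effects had opposite signs in 1249 of the 1521 positive and in 1293 of the 1410 negative genes. Among positive genes, the dnTGFB effect alone passed the test in 900, the WT effect alone in 253, both in opposite directions in 103, and neither in 245. Among negative genes, these numbers were 864, 209, 112 and 216. Which group had the highest mean follows largely from the measure. A positive interaction favours dnTGFB secretin or untreated WT, and a negative one favours untreated dnTGFB or WT secretin. Positive genes had their highest mean in dnTGFB secretin in 979 cases and in untreated WT in 486, while negative genes had it in untreated dnTGFB in 817 cases and in WT secretin in 583. Over all 18777 genes the highest mean was in dnTGFB secretin for 20.9%, in dnTGFB for 35.3%, in WT secretin for 24.6% and in WT for 19.2%. By itself, secretin's effect was called for 4237 genes (22.6%) in dnTGFB and 1168 (6.22%) in WT.

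**Figure D2:**
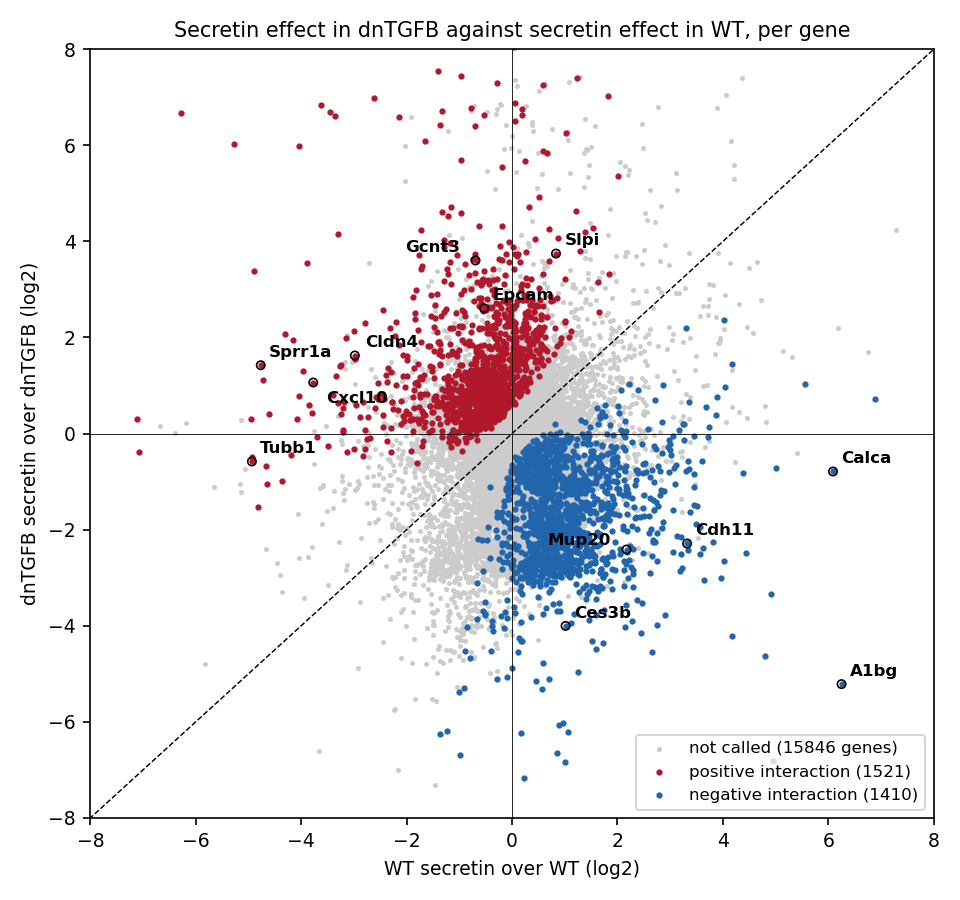
Log2 effect of secretin in dnTGFB (vertical axis) against that in WT (horizontal axis) for each gene tested, with called positive interactions in red, called negative ones in blue and equal effects on the dashed line; 2 genes lie outside the axes. The red genes fill the upper left (dnTGFB effect above 0, WT effect below 0) and the blue genes the lower right (the reverse).

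The direction of the calls held in every library choice for most genes, and the number of calls did not. The sign of the interaction was the same in all 81 choices of 1 library per group for 1513 of the 1521 positive and 1198 of the 1410 negative genes, against 29.6% of all genes tested. These choices reuse the libraries that made the calls, so called genes tend to keep their sign and the choices add no independent support. The naming rule also required the same sign for the 10 largest interactions per direction. With WT 1 and dnTGFB 3 left out, 9380 of 19176 genes were called (48.9%), 25.1% positive and 23.8% negative. Among them were 1515 of the positive and 1400 of the negative genes in the same direction and 0 in the other. List counts for this setting below are to be read beside these shares. Leaving out dnTGFB 3 alone gave 7324 calls among 19400 genes, 3963 positive and 3361 negative. Without WT 1 alone there were 3333 among 19420 genes, 1566 positive and 1767 negative. Without dnTGFB 1 there were 3907 among 19623 genes, and without dnTGFB 2 there were 4021 among 19641. Leaving out any 1 of WT 2, WT 3, the WT secretin and the dnTGFB secretin libraries, 8 in all, gave 1149 to 1381 calls. Of 19408 to 19670 genes tested, 693 to 798 were then positive and 456 to 583 negative. By the naming rule 145 genes were examined singly; 139 of them were called, and 87 of these kept the call under each of the 22 alternative settings that tested them. When WT 1 and dnTGFB 3 were left out, all 139 were called in the same direction, and the interaction of 10 moved by over 1.5 times. Most genes described below are among those 87.

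**Figure D3:**
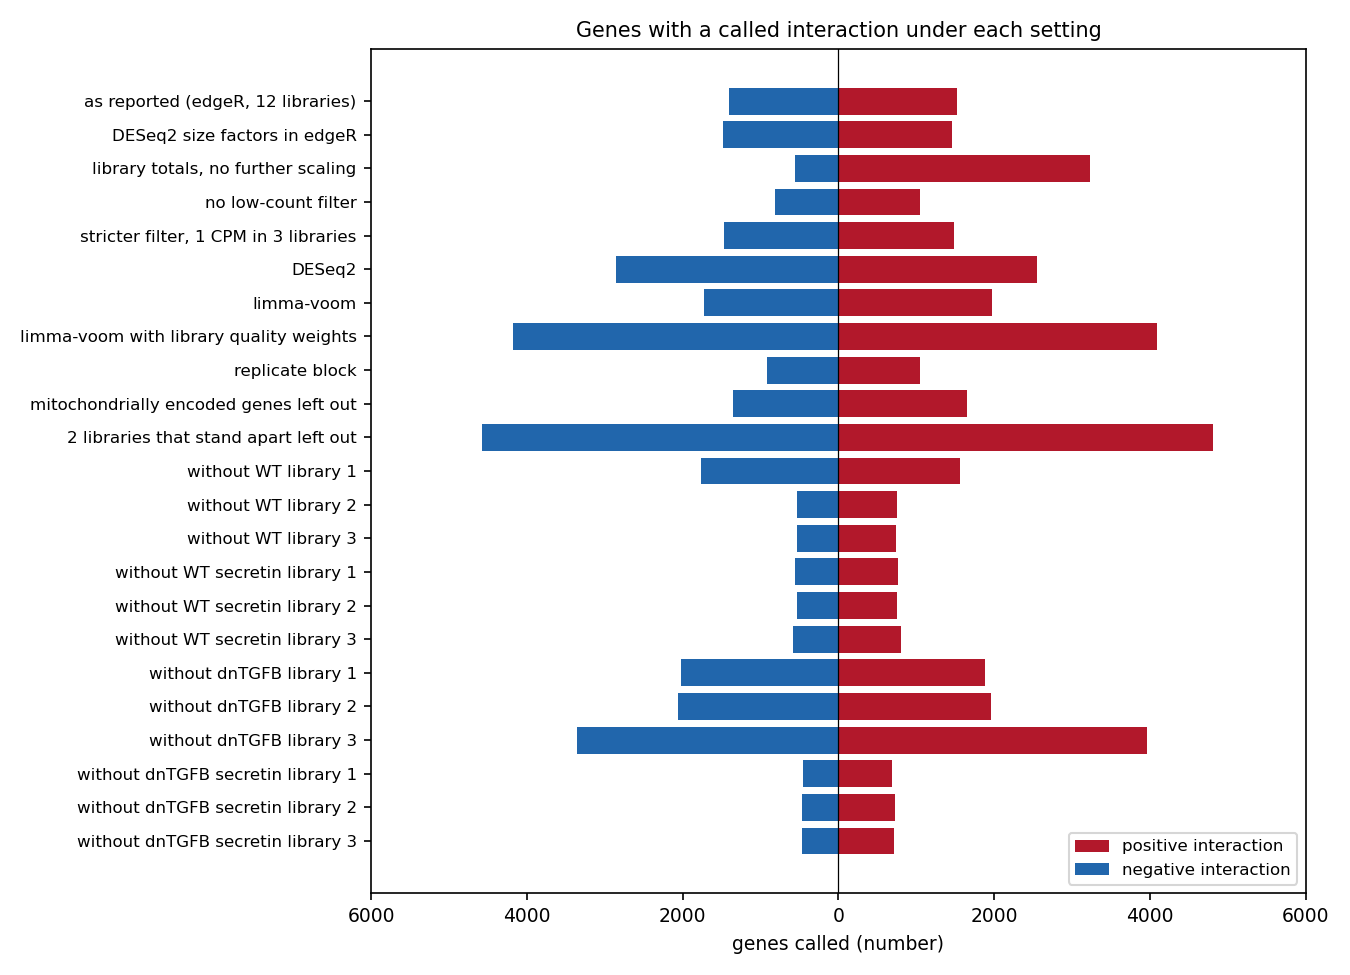
Number of genes with a called positive (right) and negative (left) interaction as reported and under each of the 22 other settings. The count ranges from 1149 without dnTGFB secretin 1 to 9380 without the 2 libraries that stand apart, and positive calls outnumber negative calls most under scaling by library totals, 3231 to 553.

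Of 36 genes of secretin signalling and bicarbonate secretion, 5 had a positive and 6 a negative interaction, and their median was -0.04, which turned to 0.57 under scaling by library totals; without WT 1 and dnTGFB 3, 13 were positive and 9 negative. The hormone gene Sct was barely counted, at 0.166, 0.253 and 0.190 CPM in dnTGFB secretin, 0.692, 1.67 and 0.587 CPM in dnTGFB, 0.198, 0.294 and 0.262 CPM in WT secretin and 0.282, 0.468 and 0.322 CPM in WT (here and below in order of library number, in TMM-scaled CPM). Its interaction was not called, at -1.88 ± 0.74 (SE; edgeR adjusted p = 0.102).

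Sctr, the secretin receptor, was at 12.8, 13.2 and 11.3 CPM in dnTGFB secretin, 1.73, 2.13 and 1.76 CPM in dnTGFB, 5.04, 6.82 and 3.99 CPM in WT secretin and 4.22, 0.639 and 0.886 CPM in WT. It was higher with secretin in dnTGFB, and in WT as well if WT 1 is set aside. The interaction was 1.23 ± 0.83 (SE; edgeR adjusted p = 0.318), and -0.10 without WT 1 and dnTGFB 3, so that its sign rests on WT 1. Cftr, the chloride channel, was at 17.1, 15.2 and 16.2 CPM in dnTGFB secretin, 3.69, 3.52 and 0 CPM in dnTGFB, 7.89, 7.61 and 6.35 CPM in WT secretin and 6.05, 3.36 and 3.79 CPM in WT. Its interaction of 1.73 ± 0.61 (SE) missed the threshold (edgeR adjusted p = 0.0758), and was 1.14 (edgeR adjusted p = 0.00114) without the 2 libraries that stand apart, 1 of which has no Cftr count. Slc4a2, the bicarbonate exchanger, was at 46.1, 45.9 and 46.3 CPM in dnTGFB secretin, 37.6, 40.2 and 24.1 CPM in dnTGFB, 58.6, 56.8 and 60.1 CPM in WT secretin and 36.0, 40.5 and 42.8 CPM in WT. Its interaction was -0.14 ± 0.23 (SE; edgeR adjusted p = 0.698), and -0.24, also not called, without WT 1 and dnTGFB 3.

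Other carriers and carbonic anhydrases of the pathway were called. Car9, a membrane-bound carbonic anhydrase, was at 53.7, 53.8 and 53.5 CPM in dnTGFB secretin, 2.89, 5.65 and 4.70 CPM in dnTGFB, 14.04, 14.5 and 12.6 CPM in WT secretin and 11.03, 16.5 and 19.1 CPM in WT. All dnTGFB secretin libraries lay above and all dnTGFB libraries below every WT library, and both WT groups overlapped; the interaction was 3.80 ± 0.35 (SE; edgeR adjusted p = 0.000265). Slc26a3, a chloride-bicarbonate exchanger known from the intestine, had an interaction of 3.69 ± 0.42. Car2, the cytosolic carbonic anhydrase that supplies bicarbonate, was at 221, 217 and 218 CPM in dnTGFB secretin, 40.5, 38.8 and 68.1 CPM in dnTGFB, 38.8, 44.7 and 43.8 CPM in WT secretin and 52.4, 70.6 and 72.9 CPM in WT. Its interaction was 2.80 ± 0.31. Slc4a4, a sodium-bicarbonate cotransporter, had 1.96 ± 0.22 and Kcnn4, a calcium-activated potassium channel (named after its value was seen), 1.75 ± 0.51. The calls of Car9, Slc26a3, Car2 and Slc4a4 held under all settings.

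The 6 negative members, named here after their values were seen, were the adenylyl cyclases, which make cyclic AMP, Adcy9 (-3.37), Adcy3 (-2.64), Adcy7 (-2.37) and Adcy5 (-2.20, or -1.37 without WT 1 and dnTGFB 3), the cyclic AMP sensor Rapgef4 (-2.13) and the anion exchanger Slc26a6 (-1.17). Secretin's effect on these 6 was -2.32 to -0.72 in dnTGFB and -0.19 to 1.57 in WT. Leaving out any 1 of the 8 libraries named above left 3 negative and 4 positive members called, and leaving out dnTGFB 3 gave 12 positive and 6 negative. Tgfbr2, the receptor whose dominant-negative form the transgene encodes, was at 108, 109 and 119 CPM in dnTGFB secretin, 123, 126 and 37.0 CPM in dnTGFB, 168, 172 and 167 CPM in WT secretin and 130.3, 138 and 138 CPM in WT; whether transgene reads are among them is not known from the sources used here. Its interaction was -0.10 ± 0.47 (SE; edgeR adjusted p = 0.904), and -0.43 (edgeR adjusted p = 3.04e-05) without WT 1 and dnTGFB 3.

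Genes that mark the biliary epithelium had positive interactions. Of 30 biliary identity genes 23 had a positive and 1 a negative interaction. The negative one was Onecut1 at -3.11, a transcription factor that hepatocytes also use (named after its value was seen). The median was 2.20, with a median secretin effect of 1.93 in dnTGFB and -0.13 in WT. In bulk samples, fewer cells of a type and less RNA of its genes per cell cannot be told apart, and the summed level of these genes was lowest in untreated dnTGFB. Epcam, the adhesion molecule used to mark cholangiocytes, was at 306, 299.7 and 297 CPM in dnTGFB secretin, 56.9, 55.6 and 34.1 CPM in dnTGFB, 114, 123 and 115 CPM in WT secretin and 120.1, 191 and 199 CPM in WT. dnTGFB secretin stood above all other libraries and dnTGFB below them; the interaction was 3.14 ± 0.33 (SE; edgeR adjusted p = 0.000494). Krt19, the cholangiocyte keratin, gave 2.59 ± 0.40 (edgeR adjusted p = 0.00311). Cldn7, a tight-junction claudin, gave 3.80 ± 0.34, Muc1, a membrane mucin of duct cells, 3.02 ± 0.32, and Tff2, a secreted trefoil peptide, 3.46 ± 0.23. At least 20 of the 30 were called positive without any 1 library, and Onecut1 was not called without any 1 of the 8 libraries named above. In the libraries other than WT 1 and dnTGFB 3, 26 were positive and 2 negative, with a median of 2.08.

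For part of these genes the effects of secretin had opposite signs. Cldn4, another claudin, was at 329, 334 and 317 CPM in dnTGFB secretin, 129, 141 and 44.0 CPM in dnTGFB, 30.02, 33.3 and 31.3 CPM in WT secretin and 184, 279.8 and 285 CPM in WT. No groups overlapped: it rose with secretin in dnTGFB, by 1.62 ± 0.35, and fell by 2.98 ± 0.37 in WT, and the interaction was 4.61 ± 0.51 (SE; edgeR adjusted p = 0.000571). Elf3, an epithelial transcription factor, was at 256, 245 and 249 CPM in dnTGFB secretin, 41.9, 60.0 and 25.3 CPM in dnTGFB, 63.6, 66.1 and 67.2 CPM in WT secretin and 119.6, 177 and 188 CPM in WT. Again all 4 groups were separate, with an interaction of 3.83 ± 0.39. Sprr1a, a cornified-envelope protein induced in stressed epithelia, had the largest positive interaction that the naming rule admits, 6.19 ± 0.56 (edgeR adjusted p = 0.000251). It was at 45.5, 42.5 and 40.8 CPM in dnTGFB secretin, 19.4, 21.03 and 4.11 CPM in dnTGFB, 0.952, 1.23 and 1.36 CPM in WT secretin and 26.2, 34.2 and 35.9 CPM in WT. Sfn, an epithelial 14-3-3 protein, gave 3.41 ± 0.42 and Ivl, involucrin of stratified epithelium, 6.10 ± 0.80. Ivl rests on few reads, with 384 in dnTGFB secretin, 24 in dnTGFB, 9 in WT secretin and 179 in WT. Sprr1a, Sfn and Ivl were the called members of a list of 12 squamous genes whose median was -2.32, of the other sign. Without WT 1 and dnTGFB 3, 3 squamous genes were positive and 6 negative (median -2.82); without WT 1 alone 7 were negative and without dnTGFB 3 alone 2.

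Of 15 mucin and trefoil genes tested, 6 were positive and 0 negative, and their median was 0.94. The positive count was 6 without any 1 library as well, but the median was 0.41 without WT 1, with 1 negative gene, and 2.31 without dnTGFB 3. Without both, 6 were positive and 3 negative, and the median was 0.12. Muc6, a gland-type secreted mucin, was at 17.7, 18.4 and 17.0 CPM in dnTGFB secretin, 8.08, 1.76 and 2.35 CPM in dnTGFB, 1.94, 1.32 and 0.997 CPM in WT secretin and 6.76, 5.83 and 7.61 CPM in WT. dnTGFB secretin lay above all other libraries and the interaction was 4.26 ± 0.66 (SE; edgeR adjusted p = 0.00317). Slpi, a secreted inhibitor of neutrophil elastase, was at 678, 716 and 657 CPM in dnTGFB secretin, 45.2, 43.7 and 65.2 CPM in dnTGFB, 44.6, 42.2 and 44.4 CPM in WT secretin and 32.4, 21.1 and 20.2 CPM in WT. It was higher with secretin in both genotypes, and by more in dnTGFB; the interaction was 2.91 ± 0.32 (edgeR adjusted p = 0.000542). Gcnt3, the enzyme that builds branched mucin glycans, gave 4.30 ± 0.78, and Muc3a, which shares sequence with Muc3 and may be counted with it, gave 3.48 ± 0.47. Arl14, a small GTPase, and Bglap3, of the osteocalcin cluster, were also among the 10 largest positive interactions, at 4.52 ± 0.54 and 4.00 ± 0.41.

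**Figure D4:**
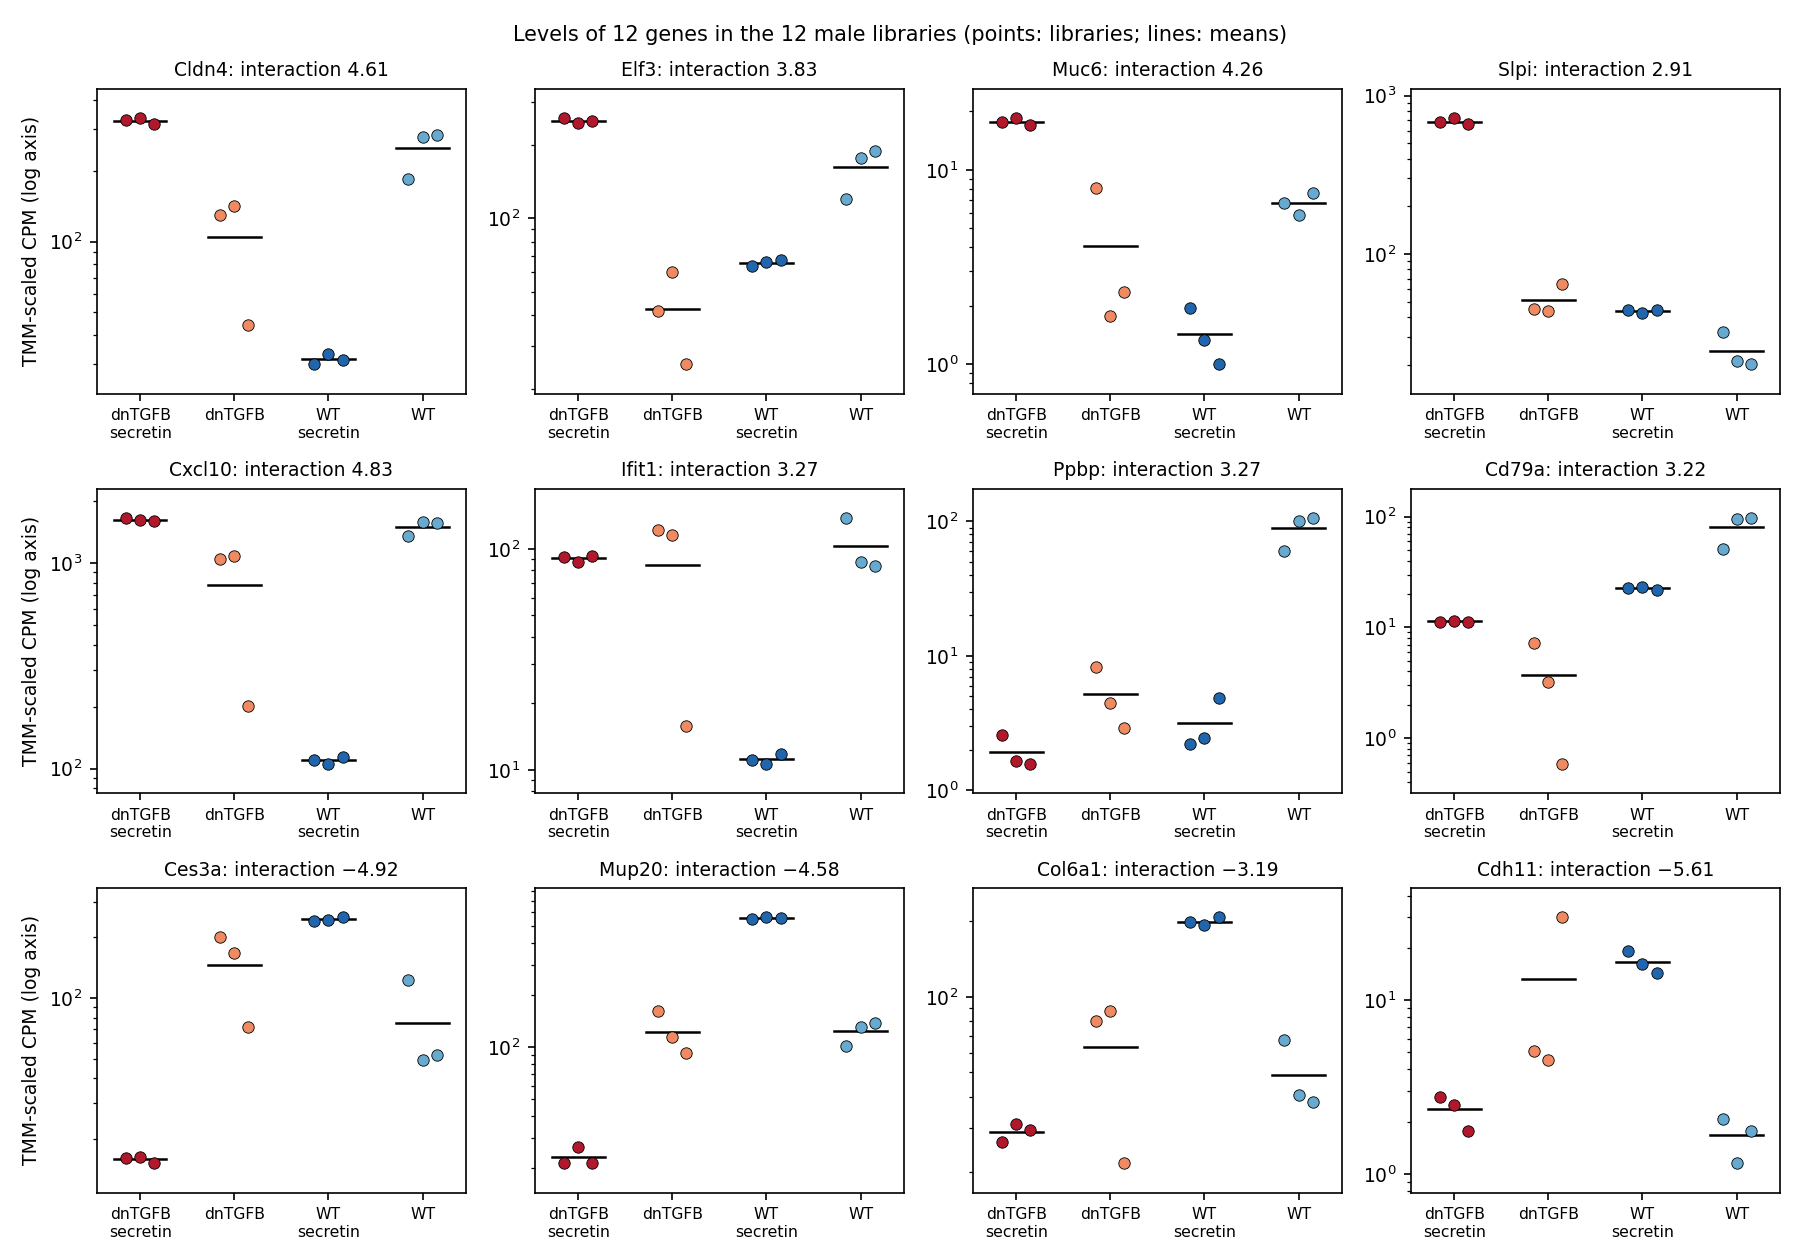
Level of 12 genes in TMM-scaled CPM (log axes) in each of the 12 male libraries; points are libraries, lines are means of 3. Cldn4, Muc6, Cxcl10 and Ifit1 have their lowest mean in WT secretin, and Elf3 has it in untreated dnTGFB. Slpi is high in dnTGFB secretin alone, and Ppbp and Cd79a are high in untreated WT. The bottom row (Ces3a, Mup20, Col6a1, Cdh11) has its highest means in WT secretin. Ces3a is also high in dnTGFB 1 and 2, and the highest single Cdh11 value is in dnTGFB 3.

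Interferon-induced genes also had positive interactions. Of 24 interferon-gamma response genes 6 were positive and 1 negative (median 1.24), and of 25 type I interferon genes 6 were positive and 0 negative (median 1.00); over all genes 8.10% were positive. The median secretin effect was 0.31 in dnTGFB and -1.02 in WT for interferon-gamma response genes, and 0.32 in dnTGFB and -0.49 in WT for type I genes. With WT 1 and dnTGFB 3 left out, 14 interferon-gamma genes were positive and 3 negative (median 0.55), and 16 type I genes were positive and 4 negative (median 0.60). Over all genes 25.1% were positive and 23.8% negative in that setting. Cxcl10, a chemokine that draws T cells, was at 1653, 1620.1 and 1603 CPM in dnTGFB secretin, 1049.7, 1083 and 200.3 CPM in dnTGFB, 109.8, 105 and 114 CPM in WT secretin and 1348, 1583 and 1564 CPM in WT. Its WT secretin libraries lay below all others; secretin's effect was 1.06 ± 0.47 in dnTGFB and -3.77 ± 0.51 in WT, and the interaction was 4.83 ± 0.69 (SE; edgeR adjusted p = 0.00209). Ifit1, which binds foreign RNA, was at 92.2, 87.5 and 92.5 CPM in dnTGFB secretin, 122, 116 and 15.9 CPM in dnTGFB, 11.1, 10.6 and 11.8 CPM in WT secretin and 138, 87.3 and 83.5 CPM in WT. Only dnTGFB 3 came near the low WT secretin values, and the interaction was 3.27 ± 0.72 (edgeR adjusted p = 0.0154), or 2.55 without the 2 libraries that stand apart.

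Socs1, the feedback inhibitor of interferon receptors, gave 3.60 ± 0.66, and Isg15, the ubiquitin-like modifier, 3.22 ± 0.67. Socs1 was at 223, 236 and 219.9 CPM in dnTGFB secretin, 133, 133 and 22.9 CPM in dnTGFB, 24.3, 26.5 and 32.4 CPM in WT secretin and 127, 149 and 160.1 CPM in WT. Ciita, the master regulator of MHC class II genes, was the negative member, at -2.05 ± 0.48 (edgeR adjusted p = 0.0187). Its level was 5.21, 3.76 and 5.09 CPM in dnTGFB secretin, 4.96, 10.9 and 3.52 CPM in dnTGFB, 25.1, 28.8 and 30.4 CPM in WT secretin and 7.23, 12.7 and 10.4 CPM in WT, so that here WT secretin was the highest group. Ciita lost its call without any 1 of WT 3, WT secretin 2, WT secretin 3, dnTGFB secretin 2 and dnTGFB secretin 3, and under scaling by library totals. The counts of both lists moved with single libraries: 3 or 4 interferon-gamma and 2 or 3 type I members were positive without any 1 of the 8 libraries named above. Without dnTGFB 3, 14 interferon-gamma genes were positive and 2 negative (median 0.79), and 16 type I genes were positive and 1 negative (median 0.64).

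The upstream sequence of 4 called interferon genes is shown because their interactions were called with the same sign and interferon genes share a known promoter element. Each line gives 250 bases up to the gene's start site, 5′ to 3′ on the gene's strand, from RefSeq annotation on GRCm38.p6; capitals mark GAAANNGAAA or its reverse complement TTTCNNTTTC, the core of the interferon-stimulated response element (overlapping matches are joined). The windows are chr5:92348890-92349139 (- strand) for Cxcl10, chr16:10785537-10785786 (-) for Socs1, chr4:156200819-156201068 (-) for Isg15 and chr19:34640639-34640888 (+) for Ifit1.
Cxcl10: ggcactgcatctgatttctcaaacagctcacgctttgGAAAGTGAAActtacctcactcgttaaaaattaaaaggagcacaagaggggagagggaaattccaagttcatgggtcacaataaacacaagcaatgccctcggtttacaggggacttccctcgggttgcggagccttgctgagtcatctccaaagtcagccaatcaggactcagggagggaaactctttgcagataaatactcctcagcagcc
Socs1: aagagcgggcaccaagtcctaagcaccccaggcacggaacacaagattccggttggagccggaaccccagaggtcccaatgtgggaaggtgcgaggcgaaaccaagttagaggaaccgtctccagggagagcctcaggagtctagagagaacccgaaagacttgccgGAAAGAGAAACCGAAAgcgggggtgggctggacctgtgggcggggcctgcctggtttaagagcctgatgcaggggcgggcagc
Isg15: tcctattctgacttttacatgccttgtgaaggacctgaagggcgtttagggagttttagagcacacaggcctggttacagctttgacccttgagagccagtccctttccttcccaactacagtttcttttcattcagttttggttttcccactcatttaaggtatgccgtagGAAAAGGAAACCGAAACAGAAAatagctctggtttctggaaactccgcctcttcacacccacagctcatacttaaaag
Ifit1: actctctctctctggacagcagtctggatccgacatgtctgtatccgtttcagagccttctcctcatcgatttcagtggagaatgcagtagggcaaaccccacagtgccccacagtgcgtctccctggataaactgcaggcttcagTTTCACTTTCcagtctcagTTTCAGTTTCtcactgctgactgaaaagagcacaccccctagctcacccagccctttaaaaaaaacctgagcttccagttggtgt
Of the 12 interferon genes called positive, 10 had a window and 7 of these held the motif. Among all 36 genes of both lists with a window, these 10 included, 18 held it. Of the 32851 windows of all genes 978 held it (2.98%). That share counts windows, while a list gene counts if any of its windows holds the motif, so these are unlike measures. A match describes the letters only.

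Platelet, B cell and macrophage genes had positive interactions as well. Of 16 platelet and megakaryocyte genes 10 were positive and 0 negative, with a median of 2.33 and a median secretin effect of -0.37 in dnTGFB and -3.30 in WT. Ppbp, a chemokine of platelet granules, was at 2.59, 1.66 and 1.58 CPM in dnTGFB secretin, 8.31, 4.45 and 2.94 CPM in dnTGFB, 2.22, 2.45 and 4.83 CPM in WT secretin and 60.0, 100.1 and 106 CPM in WT. It was high only in untreated WT, and the interaction was 3.27 ± 0.56 (SE; edgeR adjusted p = 0.00524). Tubb1, the platelet tubulin, was likewise at no more than 0.808 CPM in the dnTGFB secretin, dnTGFB and WT secretin libraries, against 6.19, 15.7 and 17.0 CPM in WT, and gave 4.36 ± 0.88. Itga2b, the platelet fibrinogen receptor subunit, gave 3.75 ± 0.48, and Pf4, another granule chemokine, 2.65 ± 0.35. Without any 1 library 8 to 12 members were positive, and 1 was negative without dnTGFB 3; without WT 1 and dnTGFB 3, 12 were positive and 1 negative (median 2.58).

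Of 17 B cell and plasma cell genes 6 were positive and 0 negative (median 1.09), and 6 to 8 were positive without any 1 library. Without dnTGFB 3, 7 were positive and 4 negative, and without WT 1 and dnTGFB 3, 9 were positive and 4 negative (median 1.16). Cd79a, the B cell receptor's signalling chain, was at 11.2, 11.5 and 11.3 CPM in dnTGFB secretin, 7.27, 3.24 and 0.587 CPM in dnTGFB, 22.6, 23.1 and 21.8 CPM in WT secretin and 51.2, 95.2 and 97.1 CPM in WT. All 4 groups were separate, in opposite order within the genotypes, and the interaction was 3.22 ± 0.56 (edgeR adjusted p = 0.00553). Jchain, which joins IgA and IgM polymers, was at 337, 330.0 and 328 CPM in dnTGFB secretin, 53.9, 56.9 and 47.6 CPM in dnTGFB, 163, 173 and 173 CPM in WT secretin and 122, 183 and 189 CPM in WT. It was lowest in untreated dnTGFB and overlapped between both WT groups, with an interaction of 2.60 ± 0.26 (edgeR adjusted p = 0.000426).

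Of 20 macrophage and Kupffer cell genes 6 were positive and 1 negative (median 1.00); 3 or 4 were positive without any 1 of the 8 libraries and 14 without dnTGFB 3, with 1 negative each time. When WT 1 and dnTGFB 3 were left out, 14 were positive and 1 negative (median 0.77). Clec4f, the Kupffer cell lectin, was at 127, 132 and 125 CPM in dnTGFB secretin, 33.2, 31.7 and 16.4 CPM in dnTGFB, 139.7, 138 and 144 CPM in WT secretin and 86.4, 137 and 138 CPM in WT. It was low in untreated dnTGFB, and gave 1.98 ± 0.35 (edgeR adjusted p = 0.00577). C1qa of complement gave 1.53 ± 0.24 and Cd5l, a secreted macrophage protein, 2.23 ± 0.40. The negative member was Lyz2, the lysozyme of myeloid cells, at -1.43 ± 0.25 (edgeR adjusted p = 0.00592). Its level was 107, 113 and 111 CPM in dnTGFB secretin, 77.8, 87.7 and 55.2 CPM in dnTGFB, 412, 439 and 426 CPM in WT secretin and 98.5, 106 and 114 CPM in WT, and its call was lost under scaling by library totals.

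Genes of cholesterol synthesis were positive in 10 of 23 cases and negative in 0, with a median of 0.57 and a median secretin effect of -0.06 in dnTGFB and -0.53 in WT. Hmgcs1, which makes the HMG-CoA that feeds the pathway, was at 262, 252 and 251 CPM in dnTGFB secretin, 313, 282 and 204 CPM in dnTGFB, 90.0, 89.8 and 87.2 CPM in WT secretin and 260.0, 208 and 206 CPM in WT. WT secretin lay below all other libraries, and the interaction was 1.27 ± 0.26 (edgeR adjusted p = 0.0113). Cyp51, a sterol demethylase, gave 1.84 ± 0.34. The positive count was 3 or 4 without any 1 of the 8 libraries. Without WT 1, 6 were positive and 2 negative, without dnTGFB 3, 13 were positive and 4 negative, and without both, 13 were positive and 8 negative (median 0.58). Cytosolic ribosomal protein genes were positive in 17 of 34 cases (median 0.94), but 0 or 1 passed without any 1 of the 8 libraries, and all 34 without dnTGFB 3 or without both it and WT 1 (median 0.88). Of 26 cell cycle genes 4 were positive and 0 negative, among them the replicative helicase subunits Mcm4 and Mcm6; 2 or 3 were called without any 1 of the 8 libraries, 9 without dnTGFB 3 and 12, all positive, without WT 1 and dnTGFB 3. Cdkn1a, the p53-induced cell cycle inhibitor, was at 201, 205 and 193 CPM in dnTGFB secretin, 323, 305 and 62.8 CPM in dnTGFB, 76.5, 78.0 and 79.9 CPM in WT secretin and 302, 271 and 287 CPM in WT. Its interaction of 1.66 ± 0.61 was not called (edgeR adjusted p = 0.0830), and was 1.19 and called without the 2 libraries that stand apart. Gadd45a, another p53 target, was called at 2.90 ± 0.30 (edgeR adjusted p = 0.000473).

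Hepatocyte genes had negative interactions. Of 28 hepatocyte markers 11 were negative and 0 positive, with a median of -2.38 and a median secretin effect of -2.19 in dnTGFB and 0.48 in WT; over all genes 7.51% were negative. Mup20, a major urinary protein of male liver with close paralogs among which reads may be split, was at 21.5, 26.7 and 21.4 CPM in dnTGFB secretin, 163, 114 and 92.8 CPM in dnTGFB, 548, 561 and 558 CPM in WT secretin and 102, 130.1 and 138 CPM in WT. dnTGFB secretin lay below and WT secretin above all other libraries, and the interaction was -4.58 ± 0.32 (SE; edgeR adjusted p = 7.29e-05). Serpina3k, a secreted protease inhibitor, gave -3.92 ± 0.82 and Cyp1a2, a drug-metabolizing cytochrome, was called as well. Ces3a, a carboxylesterase of liver, was at 16.2, 16.3 and 15.2 CPM in dnTGFB secretin, 200.2, 166 and 71.7 CPM in dnTGFB, 241, 245 and 251 CPM in WT secretin and 123, 49.2 and 52.1 CPM in WT. WT 1 lay above WT 2 and WT 3, as it did for the hepatocyte sum, and the interaction was -4.92 ± 0.58 (edgeR adjusted p = 0.000808) with it and -5.80 without it and dnTGFB 3. Ces3b (-5.02 ± 0.86), the glucuronosyltransferase Ugt2b1 (-4.87 ± 0.38) and Mup14 (-4.91 ± 0.70) were among the 10 largest negative interactions; each belongs to a gene cluster of near copies.

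Bile acid synthesis and transport by hepatocytes showed the same sign, with 7 of 19 genes negative, 0 positive and a median of -2.05. Cyp8b1, the enzyme that sets the share of cholic acid, was at 2.06, 1.84 and 1.83 CPM in dnTGFB secretin, 12.9, 5.56 and 17.0 CPM in dnTGFB, 21.4, 18.3 and 22.8 CPM in WT secretin and 5.77, 4.94 and 5.92 CPM in WT. dnTGFB secretin lay below and WT secretin above all others, with an interaction of -4.46 ± 0.46 (edgeR adjusted p = 0.000448). Slc10a1 (NTCP), which takes up bile acids from blood, gave -3.81 ± 0.77 and Slco1a1, an organic anion uptake carrier, -3.50. The counts of both lists changed with single libraries, and the cause was not tested. Hepatocyte markers called negative numbered 3 or 4 without any 1 of the 8 libraries, 7 without dnTGFB 1 or dnTGFB 2, 18 without dnTGFB 3, 24 without WT 1 and 28 (median -4.05) without WT 1 and dnTGFB 3. For bile acid genes these numbers were 4, 5 or 4, 12, 14 and 18 (median -3.68). The direction of the sums, lower in dnTGFB secretin than in dnTGFB 1 and 2 and higher in WT secretin than in WT, was opposite to that of the biliary sums in dnTGFB, and the part of cell or RNA mixture in these interactions was not tested.

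Extracellular matrix genes were negative in 13 of 30 cases and positive in 0, with a median of -1.41. Here the median secretin effect was -0.24 in dnTGFB and 1.28 in WT. Col6a1, a collagen VI chain, was at 26.3, 31.2 and 29.4 CPM in dnTGFB secretin, 80.2, 87.8 and 21.7 CPM in dnTGFB, 199, 193 and 207 CPM in WT secretin and 67.3, 40.7 and 38.0 CPM in WT. WT secretin lay above all other libraries, and the interaction was -3.19 ± 0.56 (SE; edgeR adjusted p = 0.00577). Col15a1, a basement membrane collagen, was at 10.6, 10.8 and 11.8 CPM in dnTGFB secretin, 22.04, 17.97 and 11.7 CPM in dnTGFB, 48.6, 45.2 and 45.2 CPM in WT secretin and 11.6, 10.9 and 8.70 CPM in WT. It gave -2.84 ± 0.28 (edgeR adjusted p = 0.000371), and Mmp2, a matrix protease of mesenchymal cells, gave -3.31 ± 0.54. Without any 1 of the 8 libraries 6 of the 30 were negative, without dnTGFB 1 or dnTGFB 2 there were 8, and without dnTGFB 3 there were 25. In the libraries other than WT 1 and dnTGFB 3, 27 were negative and 0 positive (median -2.30).

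Markers of mesenchymal and lining cells were negative too. Of 18 stellate cell and fibroblast genes 6 were negative (median -1.25), 2 without any 1 of the 8 libraries and 11, with 3 positive, without dnTGFB 3. Without WT 1 and dnTGFB 3, 13 were negative and 3 positive (median -1.52). Of 8 mesothelial genes 5 were negative (median -2.87), 4 to 7 without any 1 library and all 8 without WT 1 and dnTGFB 3 (median -3.55). Acta2, the actin of contractile cells, gave -1.59 ± 0.28 (not called under scaling by library totals), and Gli1, a Hedgehog target that marks perivascular mesenchyme, -4.35 ± 0.89. Gli1 was at 8.77, 5.37 and 0.587 CPM in dnTGFB 1 to 3, and its sign was not the same in all 81 choices of 1 library per group. Lrrn4, a mesothelial surface protein, was at 0.265, 0.470 and 0.190 CPM in dnTGFB secretin, 0.923, 0.185 and 0.587 CPM in dnTGFB, 4.05, 3.53 and 2.78 CPM in WT secretin and 0.235, 0.213 and 0.0403 CPM in WT. It was low everywhere but in WT secretin, with an interaction of -5.19 ± 0.96 (edgeR adjusted p = 0.00715). Cdh11, a mesenchymal cadherin, was among the 10 largest negative interactions, at -5.61 ± 0.89 (edgeR adjusted p = 0.00355). It was at 2.79, 2.50 and 1.77 CPM in dnTGFB secretin, 5.08, 4.54 and 29.95 CPM in dnTGFB, 19.3, 16.2 and 14.4 CPM in WT secretin and 2.06, 1.15 and 1.77 CPM in WT. The single high dnTGFB library is dnTGFB 3, and without it and WT 1 the interaction was -4.53.

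Dendritic, T and cytotoxic cell genes had negative interactions too. Of 12 dendritic cell genes 6 were negative and 1 positive (median -1.39), and 5 or 6 were negative without any 1 library. With WT 1 and dnTGFB 3 left out, 6 were negative and 3 positive (median -1.50). Cd209a, a lectin of dendritic cells, was at 1.19, 1.70 and 1.61 CPM in dnTGFB secretin, 0.346, 1.11 and 0.587 CPM in dnTGFB, 18.01, 16.9 and 20.4 CPM in WT secretin and 0.282, 0.511 and 0.363 CPM in WT. It was more than all others in WT secretin, and gave -4.52 ± 0.55 (edgeR adjusted p = 0.000967). Siglech, of plasmacytoid dendritic cells, gave -6.67 ± 1.13, with 10 reads in dnTGFB secretin, 17 in dnTGFB, 434 in WT secretin and 28 in WT. Itgax, the integrin CD11c, gave -3.22 ± 0.58. It was at 9.35, 7.69 and 0.587 CPM in dnTGFB 1 to 3, and its sign was not the same in all 81 choices of 1 library per group. Of 22 T cell genes 6 were negative (median -1.87) and of 15 cytotoxic cell genes 3 (median -2.13), with 0 positive in either. Cd6, a T cell co-receptor, gave -5.02 ± 0.93 at 0.166, 0.0723 and 0.221 CPM in dnTGFB secretin, 2.08, 1.95 and 0.587 CPM in dnTGFB, 2.34, 3.58 and 1.99 CPM in WT secretin and 1.74, 0.298 and 0.604 CPM in WT. These levels are low, and 1 to 3 T cell and 1 cytotoxic gene were negative without any 1 of the 8 libraries, 11 and 12 without WT 1, and 10 and 10 without dnTGFB 3; without dnTGFB 2, 3 T cell genes were. When WT 1 and dnTGFB 3 were left out, 16 T cell genes (median -2.87) and all 15 cytotoxic genes (median -4.21) were negative.

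Of the remaining genes with large negative interactions, A1bg, a plasma glycoprotein, had -11.47 ± 1.08 (SE; edgeR adjusted p = 0.000281). It rests on few reads: 1, 2 and 2 in dnTGFB secretin, 38, 15 and 0 in dnTGFB, 173, 226 and 244 in WT secretin, and 2, 2 and 5 in WT. Calca, which encodes calcitonin and the neuropeptide CGRP, was seen almost only in WT secretin, with 17 reads in dnTGFB secretin, 7 in dnTGFB, 742 in WT secretin and 11 in WT. Its interaction was -6.88 ± 1.44 and lost its call only without dnTGFB 1. Penk, the enkephalin precursor, was at 1.33, 3.40 and 4.26 CPM in dnTGFB secretin, 7.96, 10.6 and 28.2 CPM in dnTGFB, 21.7, 25.2 and 22.9 CPM in WT secretin and 4.97, 2.90 and 2.82 CPM in WT, with an interaction of -4.97 ± 0.72 (edgeR adjusted p = 0.00230). Hmcn2, a basement membrane protein, gave -5.22 ± 0.44. Galnt9, a glycosyltransferase of brain, gave -5.12 ± 1.15 at 4.51, 4.92 and 5.02 CPM in dnTGFB secretin, 12.002, 14.5 and 117 CPM in dnTGFB, 1.15, 1.18 and 0.892 CPM in WT secretin and 0.235, 0.298 and 0.322 CPM in WT. Its high value is in dnTGFB 3, the library with the neuronal sum of 7948 CPM, and without it and WT 1 the interaction was -3.23.

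The calls of neuronal and mitochondrial genes changed with single libraries. Of 14 neuronal genes 5 were negative (median -2.86), 0 to 2 without any 1 of the 8 libraries or WT 1, and 12 or 13 without any 1 of the dnTGFB libraries. In the libraries other than WT 1 and dnTGFB 3, 12 were negative and the median was -1.16. Snap25, a synaptic vesicle fusion protein, was at 123, 148 and 154 CPM in dnTGFB secretin, 352, 323 and 2403 CPM in dnTGFB, 68.0, 90.2 and 94.7 CPM in WT secretin and 50.2, 51.4 and 64.6 CPM in WT. It was highest in dnTGFB with or without library 3, and the interaction was -3.46 ± 0.90 (edgeR adjusted p = 0.0290), or -1.78 without WT 1 and dnTGFB 3. Its call was lost without any 1 of the 8 libraries, with DESeq2 and under scaling by library totals. Of the 13 mitochondrially encoded protein genes 5 were negative (median -3.37), 0 or 1 without any 1 of the 8 libraries, 3 without dnTGFB 1 or dnTGFB 2, 12 without dnTGFB 3, 13 without WT 1 and 13 (median -5.21) without both. mt-Co3, a cytochrome oxidase subunit, was at 2.45, 3.04 and 2.59 CPM in dnTGFB secretin, 53.4, 58.9 and 14.1 CPM in dnTGFB, 12.4, 14.5 and 10.2 CPM in WT secretin and 38.4, 5.07 and 5.20 CPM in WT. WT 1 was high and dnTGFB 3 low for its group, as in the mitochondrial share. The interaction of -3.62 ± 1.04 lost its call without any 1 of the 8 libraries, dnTGFB 1 or dnTGFB 2, and with no low-count filter, and was -5.65 without WT 1 and dnTGFB 3. The called members, mt-Atp6, mt-Co2, mt-Co3, mt-Nd3 and mt-Nd4l, are uncertain. In the mouse a nuclear copy of part of the mitochondrial genome resembles genes such as these, and mt-Co1, which was not called, was at 19656 to 20861 CPM in dnTGFB secretin, 40533 to 472210 CPM in dnTGFB, 79111 to 79921 CPM in WT secretin and 38308 to 282870 CPM in WT; how reads that fit both places were counted is not known.

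The other lists held few calls over all 12 libraries. TGF-β pathway genes were called positive in 3 and negative in 3 of 29 cases (median 0.05), with 0 or 1 positive without any 1 of the 8 libraries 8 of each sign without dnTGFB 3, and 9 positive and 11 negative without WT 1 and dnTGFB 3; Bambi, a TGF-β pseudoreceptor, gave 1.34 ± 0.31 (not called without any 1 of WT 2, WT 3, WT secretin 1, WT secretin 2, dnTGFB secretin 2 and dnTGFB secretin 3) and Ltbp2, of the family that stores TGF-β in the matrix, -2.97 ± 0.61. Of 32 chemokines and cytokines 3 were positive and 1 negative (median 0.53). Without dnTGFB 1, 6 were positive and 1 negative, without dnTGFB 3, 8 were positive and 6 negative, and without WT 1 and dnTGFB 3, 11 were positive and 12 negative and the median turned to -0.15. Il10, the anti-inflammatory cytokine, was at 23.3, 23.7 and 23.2 CPM in dnTGFB secretin, 7.62, 7.78 and 4.11 CPM in dnTGFB, 8.57, 6.18 and 6.56 CPM in WT secretin and 9.71, 8.77 and 9.59 CPM in WT, an interaction of 2.16 ± 0.30 (edgeR adjusted p = 0.00176). The 13 pancreatic acinar genes tested were split, with 2 positive and 1 negative, and 2 and 10 without WT 1 and dnTGFB 3. Ctrb1, chymotrypsinogen, was at 175, 184 and 167 CPM in dnTGFB secretin, 21.6, 19.3 and 22.3 CPM in dnTGFB, 55.3, 54.0 and 55.6 CPM in WT secretin and 36.7, 52.2 and 58.2 CPM in WT, and gave 2.90 ± 0.24 (edgeR adjusted p = 0.000153). Cpb1, a pancreatic carboxypeptidase, was at 6.47, 6.76 and 6.19 CPM in dnTGFB secretin, 2.77, 2.50 and 1.17 CPM in dnTGFB, 15.3, 14.1 and 14.6 CPM in WT secretin and 1.36, 0.724 and 0.363 CPM in WT, and gave -2.73 ± 0.54 (edgeR adjusted p = 0.00932). Both were higher with secretin in dnTGFB. In the unfolded protein response 2 of 19 were positive, among them the transcription factor Atf4 at 2.23 ± 0.47, and 2 were negative. Positive and negative calls numbered 3 and 1 of 25 immediate-early and heat shock genes (0 positive without WT 1 or any 1 of the 8 libraries, 5 without dnTGFB 1 or dnTGFB 2 and 18 without dnTGFB 3), 2 and 1 of 11 MHC class II, 2 and 1 of 23 senescence, 1 and 3 of 21 Notch and YAP, 1 and 1 of 25 primary cilium and 1 and 1 of 16 angiogenic genes, 0 and 2 of 19 glycolysis, 1 and 0 of 10 biliary bile acid transport and 0 and 1 of 14 neutrophil genes. By edgeR no member was called among 18 MHC class I, 17 endothelial, 12 heart muscle and 8 erythroid genes. At an unadjusted p under 0.05 these lists held 3, 4, 0 and 2 genes, DESeq2 called 3 endothelial, 2 MHC class I, 2 erythroid and 0 heart genes, and limma-voom called 1 MHC class I, 1 erythroid and 0 of the others. Without WT 1 and dnTGFB 3, 14 MHC class I genes were positive and 3 negative, and 16 endothelial genes were positive and 1 negative. Erythroid genes then gave 1 of each sign, and heart muscle genes 0 calls with a median of 1.76 in place of -1.35. The sums of both lists differed within WT secretin. That of heart muscle genes was 1069.1 CPM in WT secretin 1 and 44.2 and 49.9 CPM in WT secretin 2 and 3. That of erythroid genes was 195.2 CPM in WT secretin 1 and 55.1 CPM in WT secretin 3, with WT secretin 2 between them. Leaving out WT 1 and dnTGFB 3 gave 18 positive and 5 negative immediate-early and heat shock genes and 5 and 7 unfolded protein response genes. MHC class II genes then gave 5 and 1, senescence genes 12 and 3, and Notch and YAP genes 9 and 6. Primary cilium genes gave 3 and 3 and angiogenic genes 10 and 3. Glycolysis genes gave 3 and 9, biliary bile acid transport genes 1 and 3 and neutrophil genes 0 and 12. Where another list above held 0 calls in a direction by edgeR, an unadjusted p under 0.05, DESeq2 and limma-voom also gave 0 in that direction, with 3 exceptions. These were 1 negative type I interferon gene by each, 6, 3 and 1 negative squamous genes, and 1, 2 and 1 positive stellate genes.

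**Figure D5:**
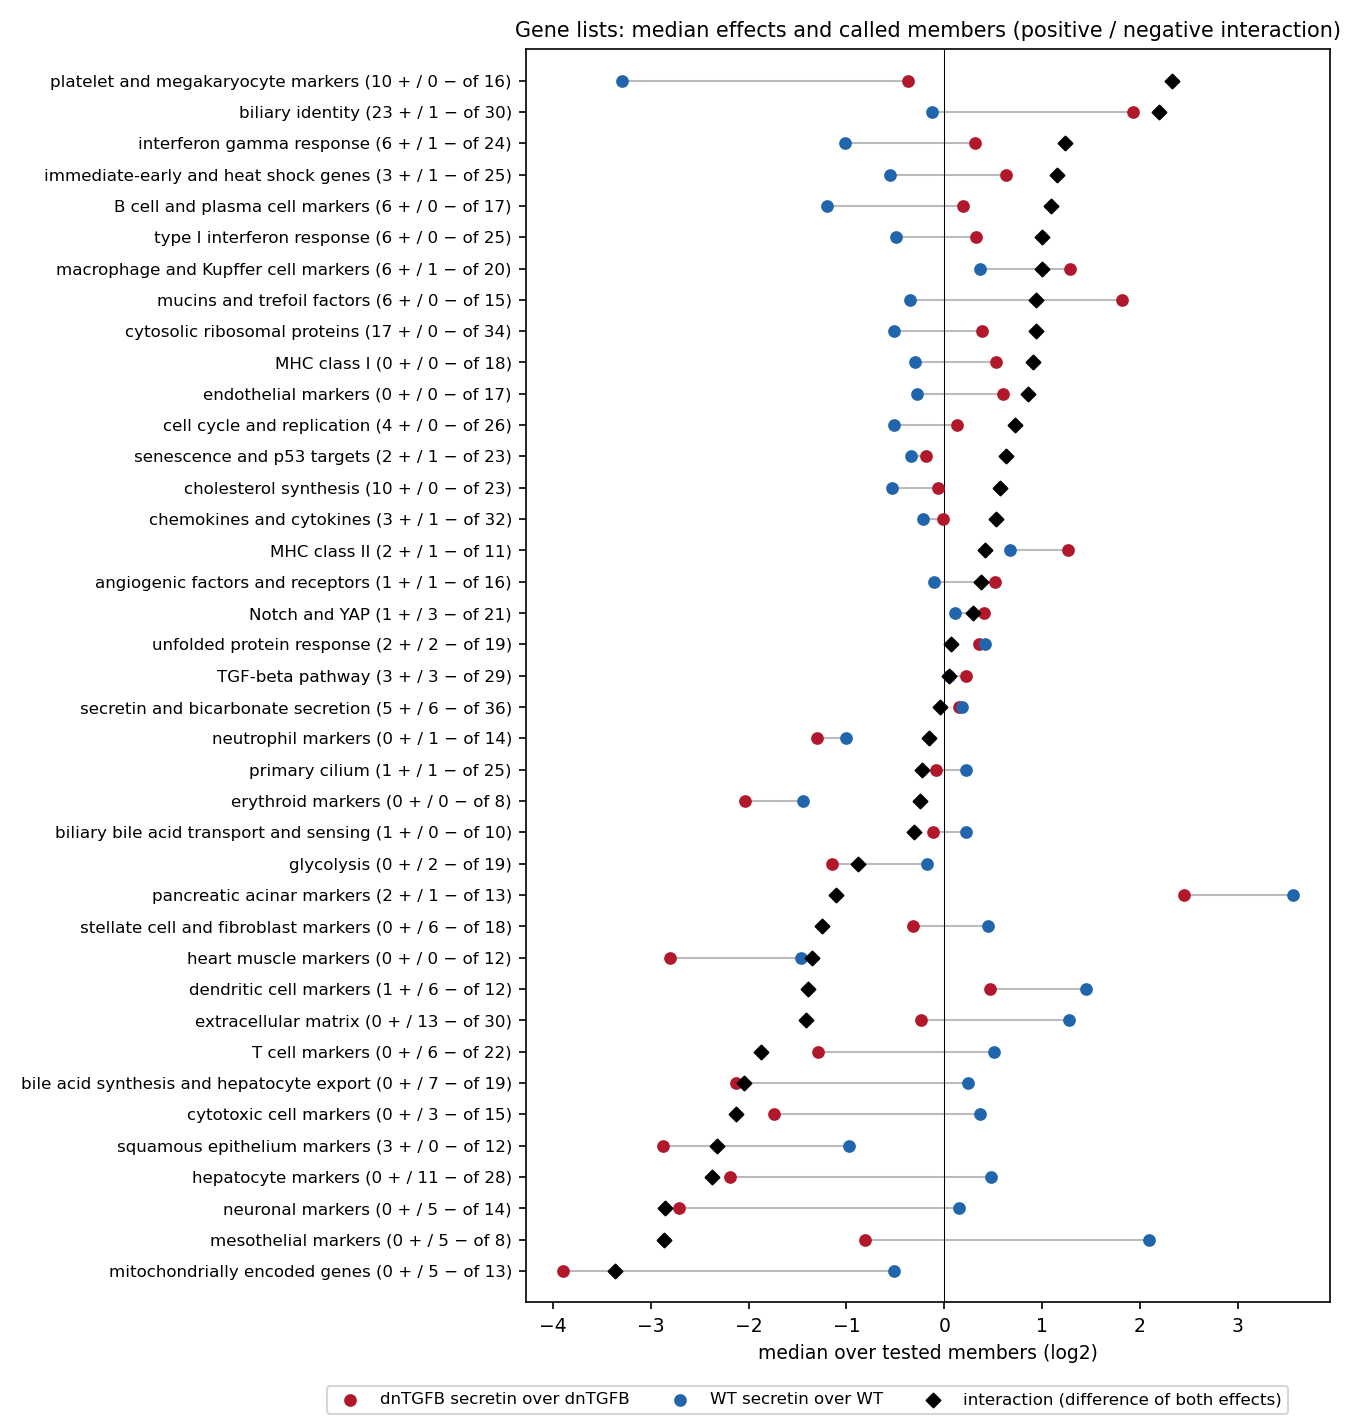
Median log2 effect of secretin in dnTGFB (red) and in WT (blue) and median interaction (black diamonds) over the tested members of each of the 39 gene lists, with the number of members called positive and negative. Platelet and biliary lists lie highest, at 2.33 and 2.20, and mitochondrial, mesothelial and neuronal lists lowest, at -3.37, -2.87 and -2.86 (the neuronal median is -1.16 without WT 1 and dnTGFB 3).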

How the data were processed

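The authors deposited raw read counts of 49315 Ensembl mouse genes for each library. No aligner, counter or strand setting is named in the sources used here, so overlapping antisense genes and near copies (Mup, Ces3, Ugt2b and H2 genes, Muc3 and Muc3a) are uncertain. The tables name no build; 49048 genes overlap and 44858 match in start and end the same identifier of GENCODE M21 on GRCm38, which supplied symbols. Counts of the 12 male libraries were fitted with edgeR 4.0.16 in R 4.3.3 (quasi-likelihood F test, robust, TMM scaling, group-wise expression filter, 1 mean per group, no block), and p-values were adjusted by Benjamini-Hochberg over all 18777 genes tested. CPM are counts scaled to TMM-adjusted totals of 1000000, except marker sums. A log2 value is an estimate ± SE, worked back as its size over the square root of F, with n = 3 libraries per group. Same-numbered libraries did not pair (2 of 18 correlations of deviations over 0.1, range -0.147 to 0.212). Genes were named as the 10 largest interactions per direction (protein-coding, at least 10 CPM in the highest group, same sign in 81 library choices), up to 4 called members per list by adjusted p, and always Epcam, Krt19, Cdkn1a, Tgfbr2, Slc4a2, Cftr, Sctr and Sct; the text describes part of them. The comparison, the 39 lists and this rule were chosen with earlier results of these data known. DESeq2 1.42.0 and limma-voom 3.58.1 were among 22 alternatives.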

Additional observations from a re-analysis of the deposited data

Results flagged for a closer look

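The genes in this section were picked out because secretin's effect was called in both genotypes with opposite signs and the test of the difference, edgeR's quasi-likelihood test of the interaction, was called too. They number 26 of the 139 called genes examined singly. Over all called genes the same held for 103 of the 1521 positive and 112 of the 1410 negative ones. The naming rule took the largest interactions, so the share among the genes examined singly does not stand for all called genes. Age differed between secretin-treated and untreated WT mice, and each group is 1 pool.

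Positive interactions, with secretin's effect above 0 in dnTGFB and below 0 in WT, were found for 14 genes. The epithelial members were Sprr1a at 6.19, Ivl at 6.10 (on few reads), Cldn4 at 4.61, Muc6 at 4.26, Elf3 at 3.83, Tff2 at 3.46 and Sfn at 3.41. The small GTPase Arl14 was at 4.52, Bglap3 at 4.00 and the p53 target Gadd45a at 2.90. The B cell genes Cd79a, at 3.22, and Pou2af1, a coactivator of B cells, at 3.05, and the sterol genes Cyp51, at 1.84, and Stard4, a cholesterol carrier, at 1.59, completed them. Without WT 1 and dnTGFB 3 these interactions lay between 1.44 and 6.24.

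Negative interactions, with the effect below 0 in dnTGFB and above 0 in WT, were found for the other genes. A1bg was at -11.47 on few reads. The liver genes were Ces3a at -4.92, Mup14 at -4.91, Ugt2b1 at -4.87, Mup20 at -4.58, Cyp8b1 at -4.46 and Slco1a1 at -3.50. The matrix and mesenchymal genes were Cdh11 at -5.61, Hmcn2 at -5.22 and Col15a1 at -2.84, and the remaining genes were Penk at -4.97 and Egr3, an immediate-early transcription factor, at -3.68. Without WT 1 and dnTGFB 3 these interactions lay between -11.59 and -3.06.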

How the results depend on the processing

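As reported, 2931 interactions, 4237 secretin effects in dnTGFB, 1168 in WT and interactions of 212 list genes were called. The number of interactions was 1858 with no low-count filter, 5397 with DESeq2, 8267 with limma-voom and library quality weights and 9380 without WT 1 and dnTGFB 3; it was 2943 with DESeq2 size factors, 3784 with library totals, 2959 with a stricter filter (1 CPM in 3 libraries), 3698 with limma-voom, 2999 without mitochondrial genes and 1970 with a replicate block. Effects in dnTGFB numbered 7526 with library totals, 6711 with quality weights and 8929 without both libraries. Effects in WT numbered 775 with no filter, 3118 with DESeq2, 2523 with limma-voom, 8112 with quality weights, 698 with the replicate block and 7767 without both libraries. List genes numbered 347 with library totals, 531 with quality weights and 559 without both libraries. Leaving out 1 library at a time gave 1149 to 7324 interactions, 1048 to 7247 effects in dnTGFB, 332 to 5963 in WT and 109 to 455 list genes; the cause was not tested.

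None of the 139 called genes examined singly reversed under these settings, and 23 lost the call with library totals, 21 with no filter, 16 with the replicate block and 33 to 42 without any 1 of WT 2, WT 3, the WT secretin and the dnTGFB secretin libraries. The uncalled Sctr reversed to -0.10 without both libraries, and was -0.0701 (without WT 1) to 1.66 without any 1 library. Slc4a2, also uncalled, reversed to 0.53 with library totals and was -0.30 to 0.0094 (without dnTGFB 2) without any 1 library. Tgfbr2, uncalled too, reversed to 0.66 with library totals, 0.13 without dnTGFB 1 and 0.16 without dnTGFB 2, and was lowest at -0.46 without dnTGFB 3. With 1429218 counts, dnTGFB 3 limits low genes most: a gene at 1 CPM has about 1 read there.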

Other observations

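Among genes not described above, Slc10a2 (ASBT), the carrier by which cholangiocytes take bile acids back from bile, was at 20.8, 21.9 and 23.5 CPM in dnTGFB secretin, 6.69, 8.52 and 2.35 CPM in dnTGFB, 11.2, 12.8 and 10.4 CPM in WT secretin and 9.29, 9.45 and 12.2 CPM in WT. It was higher with secretin in dnTGFB and overlapped between the WT groups; the interaction was 1.62 ± 0.40 (SE; edgeR adjusted p = 0.0225) and was not called without any 1 of WT 3, the WT secretin and the dnTGFB secretin libraries. Tnf, the inflammatory cytokine, was at 136, 129.5 and 126 CPM in dnTGFB secretin, 70.6, 57.4 and 14.1 CPM in dnTGFB, 28.8, 28.2 and 25.5 CPM in WT secretin and 61.3, 51.9 and 50.3 CPM in WT. Its interaction of 2.40 ± 0.54 (edgeR adjusted p = 0.0167) lost its call without WT secretin 3 alone. Pdgfb, a growth factor for mesenchymal cells, was at 63.3, 63.9 and 64.4 CPM in dnTGFB secretin, 36.9, 34.9 and 31.1 CPM in dnTGFB, 48.7, 56.2 and 54.2 CPM in WT secretin and 56.0, 55.1 and 57.9 CPM in WT. Its interaction of 0.98 ± 0.16 (edgeR adjusted p = 0.00486) was called under all settings, while all 6 stellate cell and all 13 matrix genes called over the 12 libraries had the other sign.

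Treml1, a receptor of platelet granules, and Trim69, a ubiquitin ligase induced by interferon, complete the 10 largest positive interactions that the naming rule admits. Treml1 gave 3.99 ± 0.76, with no more than 1.48 CPM in the dnTGFB secretin, dnTGFB and WT secretin libraries, against 7.37, 12.4 and 15.7 CPM in WT. Trim69 gave 4.45 ± 0.66 and was at 9.95, 12.2 and 12.8 CPM in dnTGFB secretin, 8.66, 10.9 and 1.17 CPM in dnTGFB, 0.516, 0.393 and 0.630 CPM in WT secretin and 8.54, 6.26 and 7.61 CPM in WT.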
